A study of Mus musculus with 21 samples.

Results

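Gene expression was compared between the 33D1 and the DEC205 dendritic cells (DCs) of the spleen of wild-type mice. The members of the comparison were 6 of the 21 arrays of the series, 3 titled as 33D1 and 3 titled as DEC205. The analysis ran over all genes whose signal passed a filter on at least 3 of the 21 arrays. The 33D1 antibody binds DCs that lack CD8 and carry high CD11c, and the DEC205 antibody, which binds the product of Ly75, takes the DCs that carry CD8. The series was made to find the molecule that the 33D1 antibody binds. Both groups came from wild-type C57BL/6 mice, and each array held total RNA of DCs pooled from 40 to 80 mice, labelled with biotin and hybridised to an Affymetrix array. The other 15 arrays held both DC subsets of mice injected with Flt3L melanoma, named for a growth factor that expands DCs, and 3 kinds of lymphocytes, namely B cells and CD4 or CD8 T cells. They entered the same linear model and served to estimate each gene's spread and to check markers. They also counted in the signal filter and in the choice of probe set for each gene. The Flt3L arrays further served to choose genes for a check of the wild-type arrays and to compare the subset difference between mice. The labels do not say whether the 3 pools of a subset were sorted separately, so p-values cover only the spread from pool to pool and that spread may be technical.

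Dendritic cells take up material, break it down and show its fragments to T cells. The CD8-positive DCs of the mouse spleen are known for taking up dying cells and moving their antigens onto MHC class I, a route called cross-presentation, and they depend on the transcription factor Irf8. The CD8-negative DCs are known for presenting to CD4 T cells on MHC class II, and factors such as Irf4 and Relb are needed for them. The antibodies that sorted the cells define the groups, so differences in genes tied to that sort describe the sort, while the transcription factors, vesicle traffic, signalling and metabolism of the sorted cells were open to measurement.

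The 6 arrays had median signals between 131.4 and 180.8, and the highest signal of an array lay between 32910 and 46140.9. Across genes, log2 signals correlated between 33D1 arrays with r of 0.960 to 0.976, between DEC205 arrays with r of 0.961 to 0.974, and between arrays of different subsets with r of 0.871 to 0.909, which describes the arrays, since genes are not independent replicates.

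One array stood apart within its group. Genes called with a log2 difference of at least 3 between the subsets of the Flt3L mice were followed in each of the 6 arrays compared here. That difference was measured on other arrays, but the filter, the choice of probe set and the estimate of spread also used the 6. In the 33D1 arrays 1, 2 and 3, the 58 genes of DEC205 DCs had a median signal of 3.95%, 4.81% and 5.51% of their mean in DEC205 DCs. In the DEC205 arrays 1, 2 and 3, the 91 genes of 33D1 DCs had a median of 5.86%, 6.22% and 11.7% of their mean in 33D1 DCs. DEC205 array 3 had the highest signal of its group for 75 of these 91 genes, so 33D1 transcripts were more abundant in it than in the other arrays of its group. Results are given with that array, and values without it follow for some genes and lists only.

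**Figure D1:**
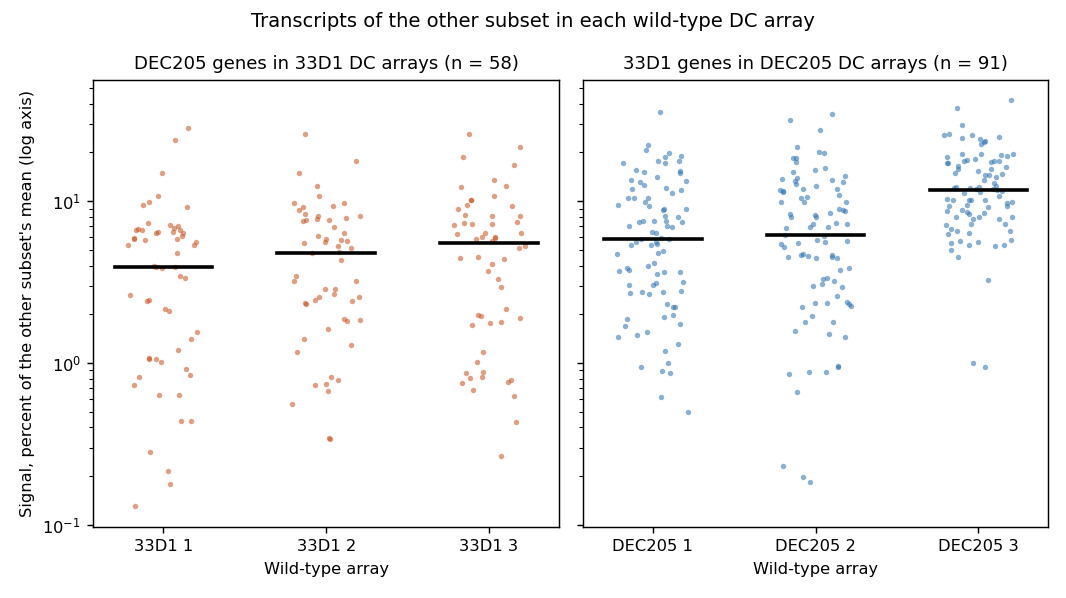
Signals of genes of the other DC subset in each wild-type array, as a percent of that subset's mean (log axis). Each point is a gene, the bar is the median, and genes were chosen by their difference between the subsets of Flt3L mice. The 58 DEC205 genes lie at similar levels in the 33D1 arrays (left), while the 91 33D1 genes are higher in DEC205 array 3, at a median of 11.7%, than in DEC205 arrays 1 and 2 (right).

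Known markers separated the groups as the labels say. Irf8 had signals of 249, 456 and 250.3 in 33D1 DCs, against 22699.6, 26772 and 24718 in DEC205 DCs. Xcr1, the chemokine receptor that marks cross-presenting DCs, had 130.2, 144 and 210 in 33D1 DCs, against 11649, 12871 and 12187 in DEC205 DCs. Both were lower in 33D1 DCs in every array, with log2 differences of -6.12 ± 0.42 and -5.89 ± 0.43 (SE), where a negative value means a lower signal in 33D1 DCs. Sirpa, the receptor of CD47, had 9189, 10257 and 11745 in 33D1 DCs, against 277, 231 and 666 in DEC205 DCs (4.69 ± 0.34). Cd7, an immunoglobulin superfamily protein, had 12002, 11869 and 10167 in 33D1 DCs, against 135, 22.3 and 562 in DEC205 DCs (5.83 ± 0.43). Without DEC205 array 3 the difference was 5.11 for Sirpa and 6.64 for Cd7, and array 3 held the highest DEC205 signal of both genes. In the list of CD8-positive DC genes 17 of 18 members were lower (median log2 difference -4.12), and in the CD8-negative list 17 of 18 were higher (median 3.54). These lists hold the sort genes and describe the sort.

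Markers of T and B cells were low in both subsets beside those cells themselves. The summed signal of 12 T cell markers lay between 1277 and 1310 in 33D1 arrays and between 757.2 and 889.2 in DEC205 arrays, against 111000 to 115000 in CD4 T cells, with Cd3d at 16, 25.9 and 17.8 in 33D1 DCs, against 23.7, 19.0 and 13.4 in DEC205 DCs. Of those 12 genes 1 was higher in 33D1 DCs, Cd5, and 0 were lower. The 13 B cell markers summed to 14680 to 19030 in 33D1 arrays and 11030 to 12840 in DEC205 arrays, against 191000 to 207300 in B cells. Of these 13 genes 4 were higher in 33D1 DCs and 1 was lower, and the 4 included Cd22, an inhibitory receptor (3.04 ± 0.28), while Cd79a, a chain of the B cell receptor, had 56.9, 35.5 and 162 in 33D1 DCs, against 65.4, 128 and 59.8 in DEC205 DCs, and a mean of 29190 in B cells. The 7 NK cell markers summed to 1542 to 1940 in 33D1 arrays and to 3424 to 3672 in DEC205 arrays, with 1 gene called, Klrk1 (-1.46 ± 0.33). The summed signals of the 11 macrophage and monocyte markers overlapped, at 12500 to 15770 in 33D1 arrays and 13160 to 16600 in DEC205 arrays. They lay at 1709 to 2718 in B cells and 1457 to 2494 in CD4 T cells. Single members of this list did differ between the subsets, with 1 gene higher and 4 lower, each by at least 2-fold. The sums of the 7 neutrophil markers also overlapped, at 2163 to 3617 in 33D1 arrays and 1104 to 3365 in DEC205 arrays. Of the neutrophil markers 1 was higher, Mmp9, and 0 were lower. S100a8, a neutrophil calcium-binding protein, varied within the groups, with 182, 611 and 143 in 33D1 DCs, against 182, 179.7 and 1018 in DEC205 DCs. The 10 plasmacytoid DC markers summed to 5503 to 6584 in 33D1 arrays and 5110 to 5262 in DEC205 arrays, with 3 genes higher and 2 lower. Siglech, which defines those cells, was not called, with 77.7, 117 and 169 in 33D1 DCs, against 32.2, 161 and 74.9 in DEC205 DCs. The 5 erythroid markers summed to 5003 to 5206 in 33D1 arrays and 1736 to 2244 in DEC205 arrays, mostly through Tfrc. Of these, Tfrc and Car2 were higher and 0 were lower, while the globin gene Hba-a1 had 120.4, 123 and 92.0 in 33D1 DCs, against 74.9, 108 and 125 in DEC205 DCs. The 7 plasma cell markers summed to 6924 to 8101 in 33D1 arrays and 9517 to 10440 in DEC205 arrays, with 1 gene higher, Irf4, and 1 lower, Xbp1. Whether other cells had a part in the differences below was not tested. In bulk RNA, fewer cells of a type and less RNA per cell cannot be told apart.

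The subsets differed widely. Of 13284 genes, 1459 (11.0%) were higher and 1528 (11.5%) lower in 33D1 DCs than in DEC205 DCs at an adjusted p under 0.05 (limma), and a gene that passed this test is called higher or lower here. Of them 635 (4.78% of all genes) were higher and 578 (4.35%) lower by at least 2-fold, and 71 and 73 by at least 8-fold. The arrays of the groups did not overlap in 2939 of the 2987 called genes. Separation largely follows from passing the test and adds no support to it, and the share over all genes is not given here. The greatest differences named below were picked among genes without overlap, so for them that remark describes the choice. The median difference over all genes was 0.04. For 2566 genes the 95% confidence interval of the log2 difference lay within 0.5 of 0 on either side, so differences beyond that size lay outside their intervals. A gene described as level below has such an interval, and a smaller difference remains possible for it. Without DEC205 array 3, 1260 genes (9.49%) were higher and 1287 (9.69%) lower, of which 1198 and 1258 had also been called with it. Gene lists are described by the number of members called in each direction, to be read against these shares.

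**Figure D2:**
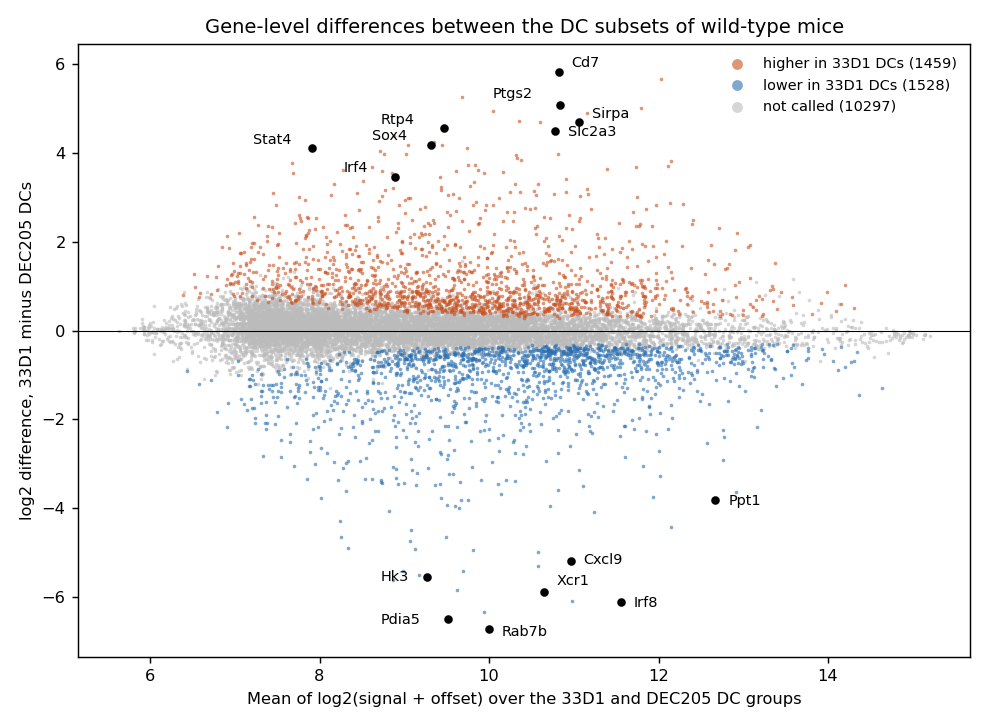
Log2 difference of each of 13284 genes (33D1 minus DEC205 DCs, vertical axis) against its mean level over both groups (log2 of signal plus an offset, horizontal axis). The 1459 genes called higher (orange) and the 1528 called lower (blue) lie at all but the lowest levels, and labelled genes are described in the text.

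Genes for transcription factors leaned toward 33D1 DCs. Of 209 tested genes for such factors in 8 lists, 59 (28.2%) were higher and 13 (6.22%) lower, with a median difference of 0.27, where 11.0% and 11.5% of all genes were called. Of the 8 interferon regulatory factors 1 was higher, Irf4, and 2 were lower, Irf8 and Irf5. Irf4, which is also needed in plasma cells, had signals of 1475, 1989 and 1027 in 33D1 DCs, against 28.9, 108 and 152 in DEC205 DCs (log2 difference 3.47 ± 0.38, adjusted p = 3.65e-07), and the arrays of the groups did not overlap. Irf5, which acts downstream of Toll-like receptors, was lower (-0.60 ± 0.17), with an adjusted p of 0.0112 that was 0.0525 without DEC205 array 1. Irf1, Irf7 and Irf9 were not called, with 95% intervals of -0.35 to 0.46, -0.47 to 0.47 and -0.20 to 0.32.

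The STAT and NF-kB list held 15 genes, of which 11 were higher in 33D1 DCs and 0 lower, with a median of 0.65. Stat4, which carries the signal of interleukin 12, showed 1161, 950.2 and 771 in 33D1 DCs, against 9.1, 8.2 and 9.6 in DEC205 DCs. It was dim in each DEC205 array and differed by 4.11 ± 0.15 (adjusted p = 5.13e-14). Relb, the NF-kB subunit needed for CD8-negative DCs, had 7842, 7339.8 and 5146 in 33D1 DCs, against 1359, 819 and 1565 in DEC205 DCs (2.42 ± 0.18). Bcl3, an atypical member of the inhibitor family that acts in the nucleus, gave 1839.6, 1438 and 1251 in 33D1 DCs, against 333, 406 and 369 in DEC205 DCs (1.88 ± 0.17). Neither gene overlapped between the groups. Rel (1.24 ± 0.25), Nfkb2 (0.70 ± 0.13) and the inhibitor Nfkbie (0.70 ± 0.13) were higher by smaller amounts. Stat6, which carries the interleukin 4 signal, and the inhibitors Nfkbia and Nfkbib were not called, at 0.20 ± 0.12, 0.06 ± 0.19 and -0.12 ± 0.17. The number of genes called in this list was 7 without 33D1 array 1, without 33D1 array 2 or without DEC205 array 2, and 7 with arrays centred on their medians. It was 8 without DEC205 array 3.

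ETS and RUNX factors lay the same way, with 7 of 19 higher and 0 lower. Spib, an ETS factor of B cells and plasmacytoid DCs, had 2697, 2253 and 1736 in 33D1 DCs, against 107, 188 and 178 in DEC205 DCs (3.47 ± 0.29). Ets1 had 407, 551 and 431 in 33D1 DCs, against 16.3, 8.5 and 8.7 in DEC205 DCs (3.09 ± 0.17), and Elk3 had 3245, 3066 and 2852 in 33D1 DCs, against 399.8, 244 and 410.4 in DEC205 DCs (2.98 ± 0.19). All 3 were higher in every 33D1 array than in any DEC205 array. Runx3 (0.98 ± 0.19) and Etv5 (1.39 ± 0.32) were also higher. Elf2, Etv6 and Elk4 lay at 0.01, -0.02 and -0.07, with intervals within 0.5 of 0.

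Among homeobox, forkhead, SOX, TCF and MEF2 factors, 14 of 37 were higher and 5 lower. Sox4 had 2505, 3289 and 2006 in 33D1 DCs, against 95.2, 37.7 and 184 in DEC205 DCs (4.19 ± 0.34). Tbx21, which encodes T-bet, had 1258, 933 and 1202 in 33D1 DCs, against 30.8, 153 and 134 in DEC205 DCs (3.03 ± 0.45). The homeobox gene Hlx (2.20 ± 0.38), the chromatin organiser Satb1 (1.57 ± 0.13), Mef2c (1.54 ± 0.24), Foxn3 (1.43 ± 0.16), Foxp1 (1.21 ± 0.14) and Pou2f2, which encodes Oct-2 (1.38 ± 0.28), were higher. Rbpj, the nuclear effector of Notch, was lower, with 2436, 2754 and 2235 in 33D1 DCs, against 4704, 4379.6 and 4394 in DEC205 DCs (-0.85 ± 0.11).

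Zinc finger and KLF factors had 10 of 41 higher and 1 lower. The Ikaros family members Ikzf1 (0.81 ± 0.11) and Ikzf3 (1.53 ± 0.15) and the DC factor Bcl11a (1.16 ± 0.27) were higher. Klf4, a Krüppel-like factor, varied between arrays, with 3106, 4392 and 1981 in 33D1 DCs, against 449, 444 and 1446 in DEC205 DCs (2.09 ± 0.37, and 2.62 without DEC205 array 3). Egr2, an immediate early gene, was the called factor of this list whose groups overlapped, with 1926, 3222 and 1090.4 in 33D1 DCs, against 808, 568 and 1406 in DEC205 DCs (adjusted p = 0.0395). Its call was lost on leaving out any 1 of 4 arrays, with adjusted p up to 0.247 (33D1 arrays 1 and 2, DEC205 arrays 1 and 2). Nuclear receptors had 5 of 21 higher and 0 lower, and 3 higher without DEC205 array 2 or with median centring. Nr1d2, a repressor of the circadian clock, had 631, 866 and 658 in 33D1 DCs, against 127, 167 and 184 in DEC205 DCs (1.88 ± 0.20), and Rarg, a retinoic acid receptor, had 786, 695 and 851 in 33D1 DCs, against 248, 330.4 and 253 in DEC205 DCs (1.35 ± 0.18). Both separated the groups in every array.

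Of 35 bZIP factors 7 were higher and 2 lower. Dbp (1.54 ± 0.15) and Tef (1.28 ± 0.15), which drive rhythmic transcription downstream of the clock, Cebpd (1.99 ± 0.28) and the heme-regulated repressor Bach1 (1.37 ± 0.13) were higher. Jdp2, a repressor of AP-1 activity, was lower (-1.12 ± 0.26), and so was Xbp1, the factor of the unfolded protein response, with 5676, 4869 and 4736 in 33D1 DCs, against 8657, 8202 and 9319 in DEC205 DCs (-0.77 ± 0.14). The bHLH and Id factors had 4 higher and 3 lower of 33. Mycl, a member of the Myc family found in DCs, had 1214, 1154 and 1087 in 33D1 DCs, against 4688, 4077 and 4349.6 in DEC205 DCs (-1.88 ± 0.15). Id2, which is required for CD8-positive DCs, had 7409, 7320.3 and 8696 in 33D1 DCs, against 15157, 17888 and 15804 in DEC205 DCs (-1.06 ± 0.23), so it was well expressed in both subsets and lower in each 33D1 array than in any DEC205 array. Tcf4, the E protein of plasmacytoid DCs (1.09 ± 0.16), and Tfeb, a regulator of lysosome genes (1.03 ± 0.27), were higher. Bhlhe40 had 4332, 5884 and 2343 in 33D1 DCs, against 316, 109 and 1078 in DEC205 DCs (3.30 ± 0.68, and 4.05 without DEC205 array 3). Of the called factors in the plot of their signals, Cebpa, Cebpb, Nfkbiz and Zeb2 lost their calls on leaving out 1 of 2 to 5 arrays, with adjusted p up to 0.145, 0.166, 0.183 and 0.0897 in the same order.

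**Figure D3:**
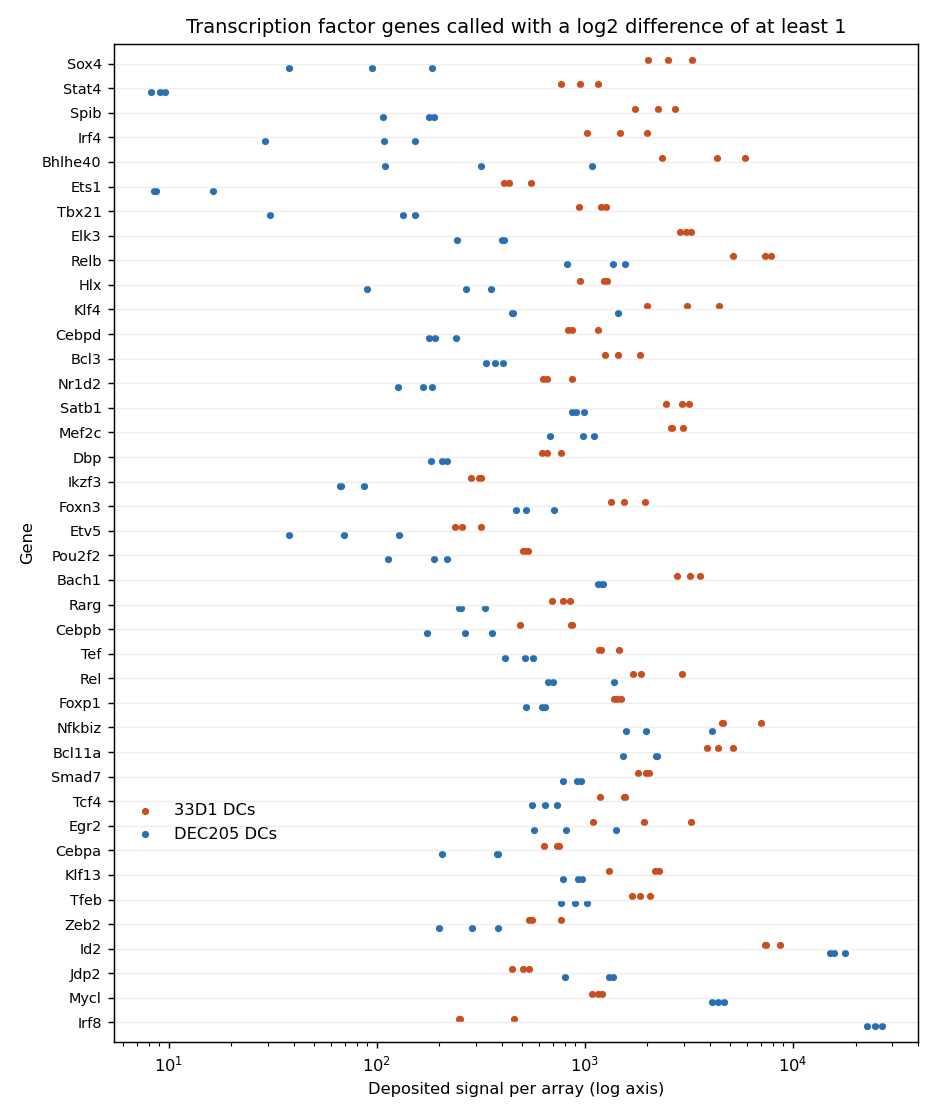
Deposited signal (log axis) of each transcription factor gene called with a log2 difference of at least 1, with 3 arrays of 33D1 DCs (orange, upper row of each gene) and 3 of DEC205 DCs (blue, lower row). Of the 40 genes, 36 are higher in 33D1 DCs and 4 lower, Irf8, Mycl, Jdp2 and Id2, and Egr2 is the gene whose arrays overlap.

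Genes of membrane traffic and of the compartments of the secretory and endocytic routes leaned the other way. Of 433 tested genes in 10 lists, 53 (12.2%) were higher and 127 (29.3%) lower in 33D1 DCs, with a median of -0.11, where 11.0% and 11.5% of all genes were called. The Rab GTPases, the switches that give vesicles their identity, had 4 of 40 higher and 17 lower, and 4 and 12 without DEC205 array 3. Rab7b, which acts between late endosomes and the Golgi, had 13.3, 68.8 and 78.3 in 33D1 DCs, against 10121, 10529.8 and 10019 in DEC205 DCs (-6.72 ± 0.45 after an offset of 48.6 was added to each signal, adjusted p = 2.39e-10). Rab32, which serves organelles related to lysosomes, had 1419.8, 1394 and 1485 in 33D1 DCs, against 6751, 6908 and 5876 in DEC205 DCs (-2.14 ± 0.16). Rab43, known in mouse CD8-positive DCs for a role in cross-presentation, had 4084, 4574 and 3769.5 in 33D1 DCs, against 12379, 12911 and 12115 in DEC205 DCs (-1.58 ± 0.15). The recycling endosome GTPase Rab11a had 2772, 2259.8 and 2110.4 in 33D1 DCs, against 7099.7, 5986 and 6231 in DEC205 DCs (-1.42 ± 0.16). None of the 4 overlapped between the groups. In the other direction stood Rab37, with 803, 524 and 707 in 33D1 DCs, against 91.3, 61.0 and 124 in DEC205 DCs (2.37 ± 0.21), and Rab24, which is linked to autophagy (1.25 ± 0.10). Rab14, Rab18 and Rab11b, the close relative of Rab11a, were not called, with 95% intervals of -0.21 to 0.26, -0.28 to 0.23 and -0.23 to 0.26.

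The regulators of Rab proteins had 7 of 38 higher and 4 lower (median 0.07). Rin2, an exchange factor of Rab5, had 856, 949 and 740.2 in 33D1 DCs, against 18.9, 56.0 and 55.6 in DEC205 DCs (3.31 ± 0.25). Dennd3, an exchange factor of Rab12, had 3680, 3323 and 4018 in 33D1 DCs, against 651, 1136 and 844 in DEC205 DCs (2.04 ± 0.21). Both were higher in each 33D1 array. Tbc1d4, a Rab GTPase-activating protein, was higher at a high level, with 12321, 15554 and 11093 in 33D1 DCs, against 5624, 4855 and 6591 in DEC205 DCs (1.18 ± 0.18), as was the vesicle motor Myo5a (1.34 ± 0.17). Dennd1b, an exchange factor of Rab35, was lower (-1.11 ± 0.17). Gdi2, which extracts Rab proteins from membranes, lay at -0.07 ± 0.12.

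Of 40 SNAREs and partners, which fuse vesicles with their targets, 3 were higher and 8 lower, and 4 were lower without 33D1 array 3 or without DEC205 array 3. Vamp3, of recycling endosomes, had 1719, 2029 and 1818 in 33D1 DCs, against 4750.3, 4889.5 and 5180.2 in DEC205 DCs (-1.39 ± 0.15). The plasma membrane syntaxins Stx3 (-1.52 ± 0.22) and Stx2 (-1.14 ± 0.14) were lower too, and Vamp5 was higher (1.32 ± 0.17). The endosomal SNAREs Stx7 and Vamp8 had differences of 0.16 ± 0.11 and -0.04 ± 0.11 and were not called. Coat, adaptor and sorting genes divided evenly, with 8 of 57 higher and 9 lower. Snx24 had 80.8, 31.0 and 119 in 33D1 DCs, against 1242, 1175 and 1105 in DEC205 DCs (-3.35 ± 0.28), and Snx22 had 311, 343 and 569.6 in 33D1 DCs, against 2159, 2325 and 1705 in DEC205 DCs (-2.24 ± 0.21). Both sorting nexins were low in 33D1 DCs in every array. Snx2, a subunit of the retromer-associated coat, was lower (-1.11 ± 0.14). The adaptor subunit Ap1s2 (1.30 ± 0.15) and Bin1, which bends membranes (1.19 ± 0.15), were higher. The clathrin heavy chain Cltc and the retromer subunit Vps35 were level, with intervals of -0.13 to 0.25 and -0.35 to 0.14. In the list of ESCRT, HOPS and endosome maturation, 6 of 42 were higher and 7 lower, and 3 were higher without DEC205 array 3 or with median centring. The phosphoinositide phosphatase Mtmr4 (-1.18 ± 0.13), the ESCRT-I subunit Vps37c (-1.36 ± 0.15) and the autophagy scaffold Wdfy3 (-1.64 ± 0.25) were lower.

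Lysosomal genes moved in both directions and by large amounts, with 14 of 51 higher and 16 lower. Ppt1, a thioesterase that removes palmitate from proteins, had 1587, 1932 and 1533 in 33D1 DCs, against 20771, 28477 and 24215 in DEC205 DCs (-3.82 ± 0.15, adjusted p = 1.05e-13). Its relative Ppt2 (-2.25 ± 0.19), the membrane protein Laptm4b (-3.51 ± 0.16), and the glycan-degrading enzymes Arsb (-2.22 ± 0.17) and Fuca1 (-2.24 ± 0.12) were lower as well. The opposite side held Ctsa, the carboxypeptidase that protects other lysosomal enzymes, with 9186, 9368 and 7686 in 33D1 DCs, against 1806, 1376 and 1820.3 in DEC205 DCs (2.36 ± 0.14), and Acp5, an acid phosphatase, with 3675, 3565 and 2909 in 33D1 DCs, against 574, 579 and 706 in DEC205 DCs (2.36 ± 0.17). Neither pair of groups overlapped. The peptide and histidine transporters Slc15a3 (2.23 ± 0.30) and Slc15a4 (2.02 ± 0.21) were both higher. The cholesterol exporters of the lysosome were split: Npc1 had 1276, 1230.3 and 1184 in 33D1 DCs, against 482, 327 and 325 in DEC205 DCs (1.60 ± 0.17) and Npc2 had 5476, 5571 and 4196 in 33D1 DCs, against 16673, 17793 and 18154 in DEC205 DCs (-1.79 ± 0.17). Lamp1, the main lysosomal membrane protein, was level at -0.01 ± 0.14 (interval -0.31 to 0.29), with means of 4563 ± 716 in 33D1 DCs and 4588 ± 670 in DEC205 DCs (SD, n = 3 each). Of 15 subunits of the vacuolar proton pump 0 were higher and 4 lower, and 2 were lower without any 1 of 33D1 arrays 2 and 3 and DEC205 arrays 1 and 3, or with median centring. The subunit Atp6v0a2 had 599.9, 535 and 474 in 33D1 DCs, against 2100, 2384 and 1971 in DEC205 DCs (-1.91 ± 0.14), and Atp6v0e was lower by less (-0.61 ± 0.12).

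Genes of the endoplasmic reticulum (ER) that were called were all lower. Of 37 genes for folding and quality control in the ER, 0 were higher and 24 lower in 33D1 DCs, with a median of -0.72, and of 57 genes for entry into the ER and transport to the Golgi 0 were higher and 32 lower, with a median of -0.42. Pdia5, a protein disulfide isomerase, had 44.0, 23.3 and 18.5 in 33D1 DCs, against 6566, 7467 and 6665 in DEC205 DCs (-6.50 ± 0.33). Manf, a secreted protein induced by ER stress, had 2069.7, 2076 and 2019 in 33D1 DCs, against 6113, 5747 and 6240 in DEC205 DCs (-1.53 ± 0.15), and Creld2, another such protein, had 1004, 795 and 909.7 in 33D1 DCs, against 3506, 3054 and 3596 in DEC205 DCs (-1.85 ± 0.15). The other isomerases Pdia3 (-1.24 ± 0.14), Pdia6 (-1.13 ± 0.10) and P4hb (-1.06 ± 0.11) were lower by about the same size as each other. In the transport list Sec24d, a coat protein that selects cargo leaving the ER, had 232, 212 and 284 in 33D1 DCs, against 1035, 995 and 1117 in DEC205 DCs (-1.92 ± 0.20). Rpn1, a subunit of the enzyme that attaches glycans to new proteins, had 3663, 3052 and 3863 in 33D1 DCs, against 9224, 10273 and 9167 in DEC205 DCs (-1.43 ± 0.12), and the translocon partner Sec63 (-1.07 ± 0.12) and the translocon-associated Ssr4 (-1.10 ± 0.15) and Ssr2 (-0.90 ± 0.13) were lower as well. The sensor Eif2ak3 (PERK) and the degradation factors Sel1l and Edem2 were not called, at -0.04 ± 0.12, -0.15 ± 0.15 and -0.06 ± 0.16. Hspa5, the main chaperone of the ER, had 11814, 14849.7 and 9790.3 in 33D1 DCs, against 17172, 19014 and 21593 in DEC205 DCs, with a difference of -0.68 ± 0.25 that did not pass (adjusted p = 0.0567). The folding list had 23 lower genes after quantile normalization, after median centring, and without DEC205 array 3. The transport list had 29 lower and 1 higher after quantile normalization, and 26 lower with median centring and without DEC205 array 3.

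**Figure D4:**
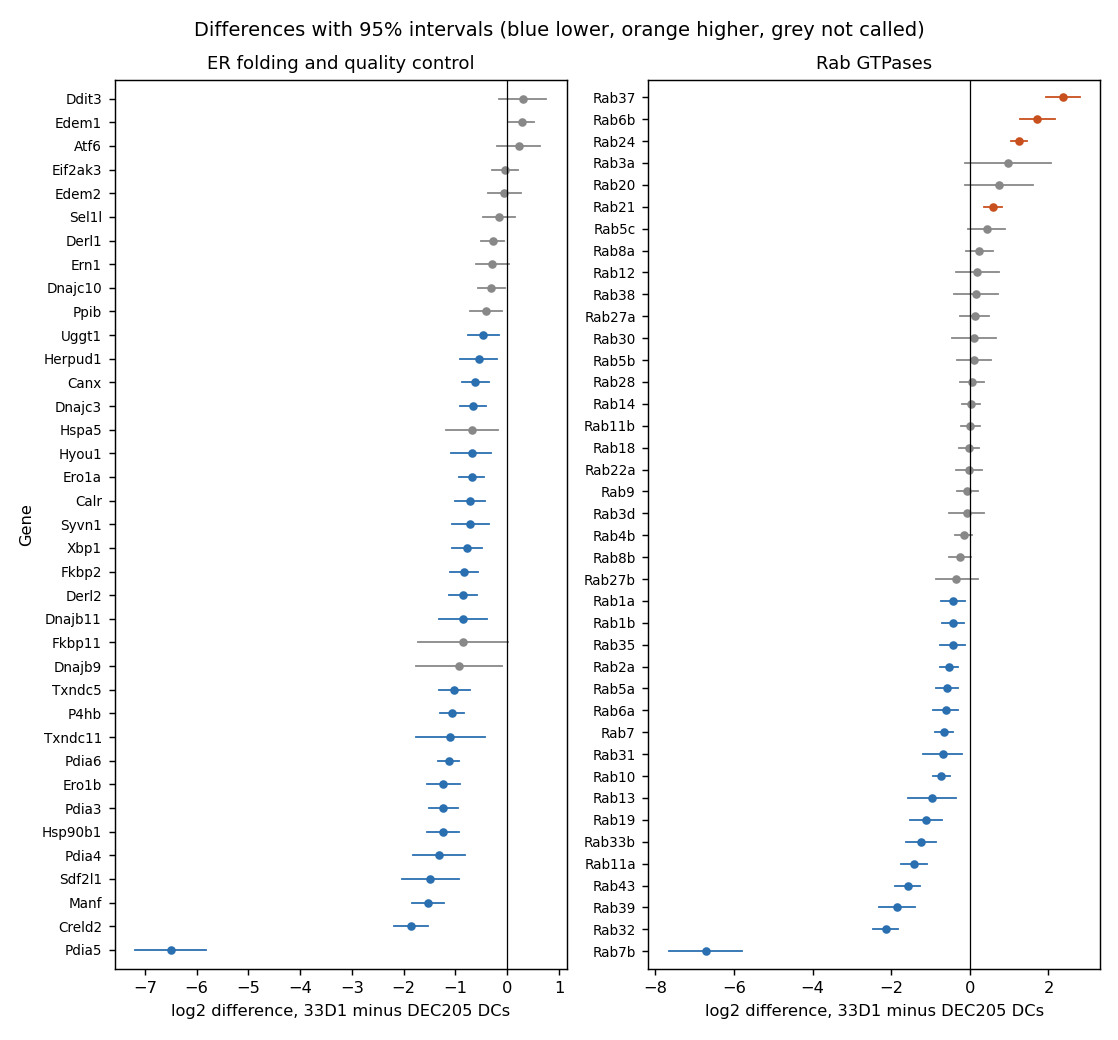
Log2 difference (33D1 minus DEC205 DCs, points) with its 95% confidence interval (lines) for every tested gene of ER folding (left, 37 genes) and for every tested Rab GTPase (right, 40 genes). In the ER list 24 genes are lower and 0 higher, and Pdia5 lies apart from the rest, while the Rab list has 17 lower and 4 higher and Rab7b lies furthest out.

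Because the ER genes were lower together, their promoters were searched for the ER stress response element, spelled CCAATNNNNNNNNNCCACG, on both strands of the 250 bases before to 50 bases after the start of the gene (RefSeq, GRCm38.p6). It was found in 8 of 22 called folding genes with a promoter in the table (36.4%) and in 1 of 11 folding genes not called (9.09%, Hspa5). Among all 27025 genes with a promoter 37 held it (0.137%), and among the 10701 tested ones 15 (0.14%). The list was written from known ER genes, so its excess over these shares is no finding about the subsets. Below are 3 promoters of lower genes that hold it, shown since they hold the element found in 8 genes of the list, with each match in capitals. Creld2 lies at chr15:88819396-88819695 on the plus strand, Pdia6 at chr12:17266339-17266638 on the plus strand, and Hsp90b1, which encodes the ER chaperone Grp94 and differed by -1.24 ± 0.15, at chr10:86705395-86705694 on the minus strand. Each is written 5′ to 3′ on the strand of its gene. Hsp90b1 holds 2 matches, and these genes were chosen for their match after their values were seen. A match describes the letters and does not show binding.
Creld2: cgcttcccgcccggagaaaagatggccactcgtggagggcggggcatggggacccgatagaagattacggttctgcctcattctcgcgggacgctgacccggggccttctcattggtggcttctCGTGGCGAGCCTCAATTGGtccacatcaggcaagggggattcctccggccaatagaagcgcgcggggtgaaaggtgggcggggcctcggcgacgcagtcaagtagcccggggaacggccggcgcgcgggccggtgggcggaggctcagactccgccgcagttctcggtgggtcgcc
Pdia6: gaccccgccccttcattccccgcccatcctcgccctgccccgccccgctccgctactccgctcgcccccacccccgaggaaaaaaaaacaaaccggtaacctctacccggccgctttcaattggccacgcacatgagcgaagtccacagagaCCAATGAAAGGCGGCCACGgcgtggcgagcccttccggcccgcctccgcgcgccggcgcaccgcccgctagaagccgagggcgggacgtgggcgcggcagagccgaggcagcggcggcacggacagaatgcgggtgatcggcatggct
Hsp90b1: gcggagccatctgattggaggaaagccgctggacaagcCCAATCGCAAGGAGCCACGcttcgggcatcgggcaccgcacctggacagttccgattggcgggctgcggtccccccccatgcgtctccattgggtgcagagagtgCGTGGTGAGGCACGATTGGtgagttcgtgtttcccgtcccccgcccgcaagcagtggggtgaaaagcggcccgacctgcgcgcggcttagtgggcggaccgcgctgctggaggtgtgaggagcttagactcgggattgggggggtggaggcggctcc

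Myosins, kinesins and regulators of actin had 12 of 57 higher and 6 lower. Fmnl2, a formin that extends actin filaments, had 450, 596 and 369 in 33D1 DCs, against 6437, 5919 and 6108 in DEC205 DCs (-3.60 ± 0.21). The actin-severing protein Gsn (1.0 ± 0.13), the partner of the WASP protein Wipf1 (0.98 ± 0.14) and Myo9b (0.95 ± 0.14) were higher, and Myo18a was lower (-1.35 ± 0.18). Cfl1, Coro1a and Pfn1, which turn over actin in all leukocytes, were level at -0.20, -0.05 and 0.06.

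**Figure D5:**
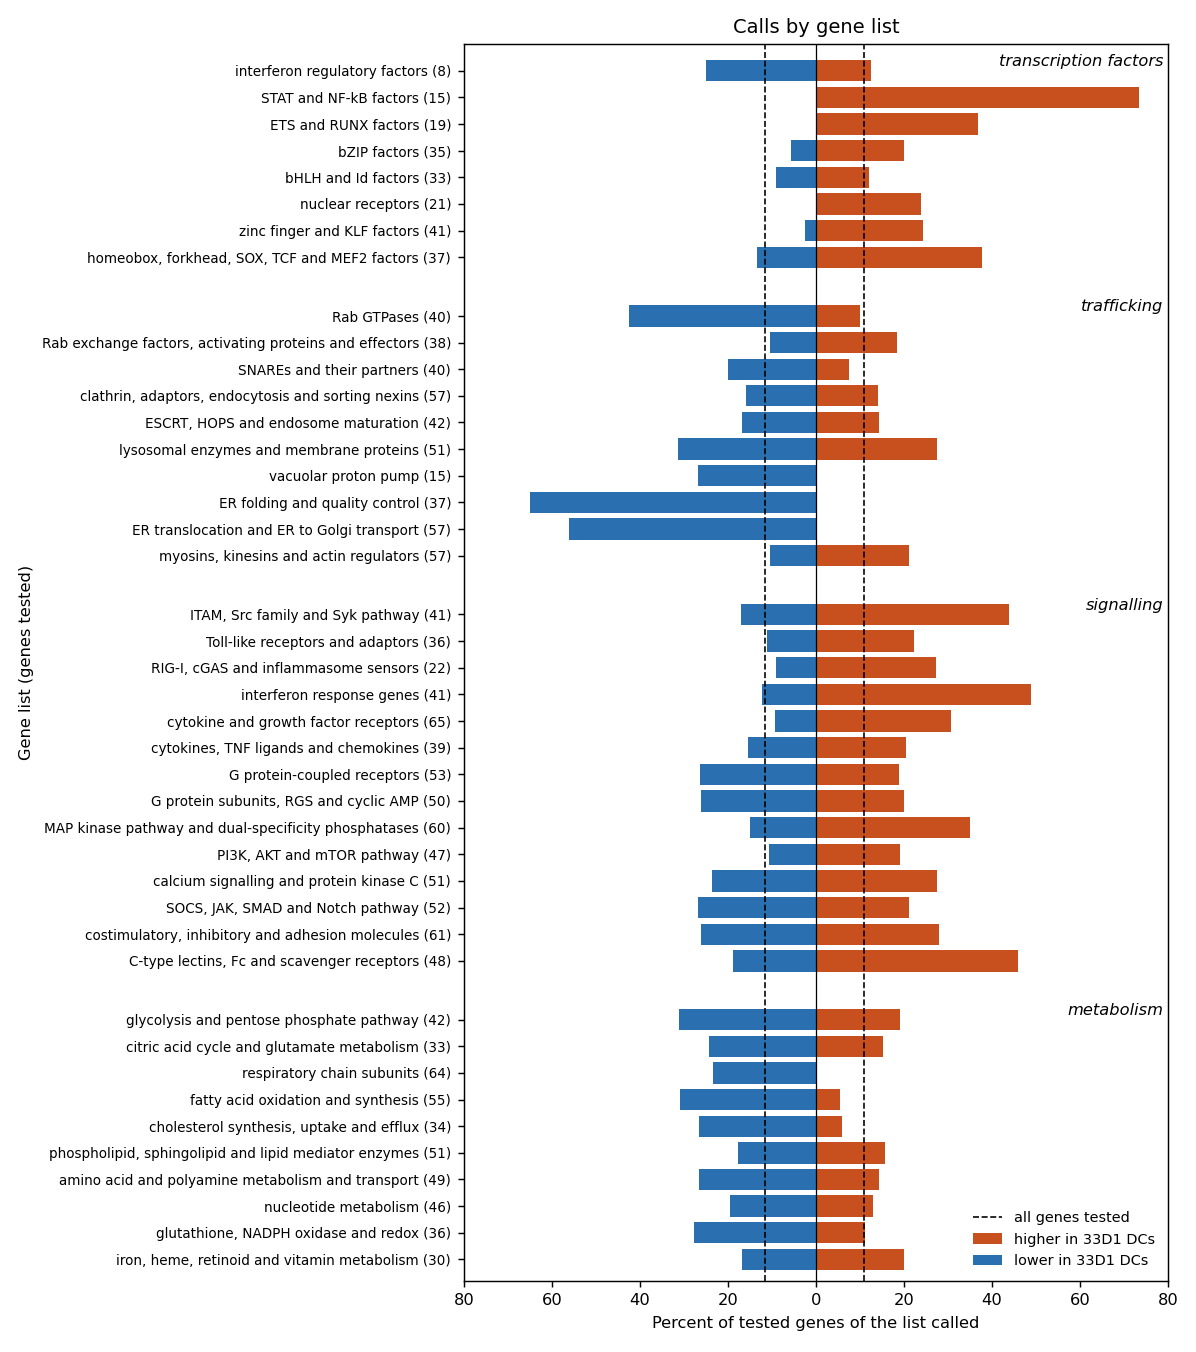
Percent of the tested genes of each list described here called higher (orange, right) or lower (blue, left) in 33D1 DCs, with the number tested in brackets, and dashed lines at the shares over all genes, 11.0% and 11.5%. The STAT and NF-kB, ETS and RUNX, ITAM and interferon response lists extend mostly to the right, and the ER, Rab GTPase, respiratory chain and fatty acid lists mostly to the left. The interferon regulatory factor list holds 8 genes, with 1 higher and 2 lower, too few to show a direction.

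Signalling genes differed in both directions. Of 723 tested genes in 15 lists, 219 (30.3%) were higher and 129 (17.8%) lower, with a median of 0.16, where 11.0% and 11.5% of all genes were called. The pathway of ITAM receptors, Src kinases and Syk had 18 of 41 higher and 7 lower. Fcer1g, the ITAM chain shared by many activating receptors, had 11791, 12723 and 10933 in 33D1 DCs, against 885, 548 and 1349 in DEC205 DCs (3.69 ± 0.30). Ptpn6, which encodes the phosphatase SHP-1, had 13664, 11665 and 11263 in 33D1 DCs, against 3419.6, 2674 and 3479.5 in DEC205 DCs (1.92 ± 0.14), and the Src family kinase Fgr had 4416, 4632 and 4196 in 33D1 DCs, against 762, 766 and 1068 in DEC205 DCs (2.30 ± 0.16). All of these separated the groups in each array. The receptor phosphatase Ptpro (2.84 ± 0.33), the adaptor Fyb (1.72 ± 0.13) and Malt1, which links the pathway to NF-kB (1.54 ± 0.11), were higher. Clnk, an adaptor related to SLP-76, ran the other way, with 97.6, 75.1 and 137 in 33D1 DCs, against 1694, 1623 and 1089 in DEC205 DCs (-3.32 ± 0.29). Blk, a Src kinase of B cells, differed by 2.34 ± 0.38 here and by 0.76 ± 0.38 between the subsets of the Flt3L mice, and the direct test of that gap did not pass (adjusted p = 0.596).

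Surface receptors of the lectin, Fc and scavenger families had 22 of 48 higher and 9 lower. The lectins Clec4a3 (3.17 ± 0.23), Cd209a (3.31 ± 0.26) and Clec7a, which encodes Dectin-1 (2.48 ± 0.34), the Siglecs Siglecg (3.13 ± 0.31) and Siglece (2.42 ± 0.32), and the inhibitory receptor Cd300lf, with 5839.9, 6173 and 5984 in 33D1 DCs, against 453, 327 and 898 in DEC205 DCs (3.42 ± 0.25), were higher. Cd36, a scavenger receptor of dying cells, had 55.5, 72.0 and 55.1 in 33D1 DCs, against 9195, 8908 and 8259 in DEC205 DCs (-6.34 ± 0.34). Fcgrt, the neonatal Fc receptor, had 1036, 924 and 1051 in 33D1 DCs, against 4499.8, 4841 and 3588 in DEC205 DCs (-2.04 ± 0.21), and Treml4 (-2.21 ± 0.22) and Cd207, which encodes Langerin (-3.36 ± 0.47), were lower too. Ly75, the antigen of the sort, was lower (-3.82 ± 0.22).

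Single innate sensors differed in both directions. Each list's share of lower genes, 11.1% for Toll-like receptors and adaptors and 9.09% for cytosolic sensors, did not exceed the 11.5% of all genes. The shares of higher genes were 22.2% and 27.3% in the same order, against 11.0% of all genes. Tlr7, a receptor of single-stranded RNA, had 1089, 987 and 919.5 in 33D1 DCs, against 5.0, 38.5 and 84.6 in DEC205 DCs (3.61 ± 0.37), and Tlr1, a partner of Tlr2, had 3639.9, 3814 and 4088 in 33D1 DCs, against 307, 172 and 391 in DEC205 DCs (3.58 ± 0.24). Tlr3, of double-stranded RNA, had 208, 209 and 253 in 33D1 DCs, against 9339, 9270.1 and 7144 in DEC205 DCs (-4.98 ± 0.27), and Tlr12, of profilin in the mouse, had 12.7, 11.0 and 12.1 in 33D1 DCs, against 1762, 1300 and 1429.6 in DEC205 DCs (-4.66 ± 0.27). For each of these receptors the arrays of one subset lay entirely above those of the other. Across the list of Toll-like receptors and adaptors 8 of 36 were higher and 4 lower, and 5 were higher without 33D1 array 2, without DEC205 array 3 or with median centring. The kinase Tbk1 and the adaptor Tab2 were level, with intervals of -0.35 to 0.14 and -0.17 to 0.39. The cytosolic sensors had 6 of 22 higher and 2 lower. Ifih1, which encodes the RNA sensor MDA5 (1.58 ± 0.23), Nod1, a sensor of bacterial cell walls (1.68 ± 0.21), and Sting1, the adaptor of DNA sensing (1.29 ± 0.24), were higher. Ripk3, a kinase of programmed necrosis, was lower (-0.94 ± 0.13), and Mavs, the adaptor of MDA5, lay at -0.02 ± 0.15.

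Interferon response genes had 20 of 41 higher and 5 lower, with a median of 0.65, and 16 higher with median centring. Rtp4 had 2990.1, 3222 and 3002 in 33D1 DCs, against 48.0, 27.0 and 265 in DEC205 DCs (4.56 ± 0.39). Ifit3, which blocks viral RNA translation with its partners, had 1088, 1411 and 1331 in 33D1 DCs, against 181, 267 and 289 in DEC205 DCs (2.18 ± 0.24), and Oas2, a sensor of double-stranded RNA, had 1095, 1491 and 1171 in 33D1 DCs, against 148, 201 and 192 in DEC205 DCs (2.50 ± 0.30). DEC205 array 3 held the highest DEC205 signal of Rtp4 and Ifit3, but the groups did not overlap in any of the 3. Isg20 (2.25 ± 0.24), Ifit1 (2.23 ± 0.28) and Ifi27l2a (2.54 ± 0.25) were higher. The genes of the list that were lower included Tap1, the peptide transporter (-0.93 ± 0.09), which interferon also induces. Dtx3l, Adar and Psmb10 were level at 0.15, -0.15 and 0.06.

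The core of the interferon-stimulated response element, GAAANNGAAA, was searched on both strands of the same windows. It stood in 7 of 14 interferon genes called higher with a promoter in the table (50%) and in 9 of 20 that were not called higher (45%). Among all 27025 genes with a promoter 1079 held it (3.99%), and among the 10701 tested ones 397 (3.71%). The genes not called higher include those called lower. The list was written from genes known to respond to interferon, so its excess over all genes is no finding about the subsets. The 3 promoters shown hold 2 matches each, in capitals and overlapping in Oas1a, and belong to genes of this list that were higher, with Oas1a at 2.68 ± 0.19 and Ifitm3, a membrane protein that blocks virus entry, at 1.52 ± 0.18. They were chosen for their match after their values were seen. They lie at chr5:120907476-120907775 on the minus strand (Oas1a), chr19:34583279-34583578 on the plus strand (Ifit3) and chr7:141010695-141010994 on the minus strand (Ifitm3), and are written 5′ to 3′ on the strand of the gene.
Oas1a: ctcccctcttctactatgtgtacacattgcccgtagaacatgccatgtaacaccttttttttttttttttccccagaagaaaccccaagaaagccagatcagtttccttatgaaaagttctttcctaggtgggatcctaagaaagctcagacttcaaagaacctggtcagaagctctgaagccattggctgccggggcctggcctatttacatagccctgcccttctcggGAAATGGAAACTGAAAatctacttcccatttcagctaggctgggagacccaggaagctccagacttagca
Ifit3: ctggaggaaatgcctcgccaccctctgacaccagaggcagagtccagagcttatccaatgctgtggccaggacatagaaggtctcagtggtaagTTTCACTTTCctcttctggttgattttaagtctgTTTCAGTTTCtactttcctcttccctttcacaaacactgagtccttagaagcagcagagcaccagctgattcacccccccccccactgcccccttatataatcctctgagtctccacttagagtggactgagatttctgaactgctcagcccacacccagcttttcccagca
Ifitm3: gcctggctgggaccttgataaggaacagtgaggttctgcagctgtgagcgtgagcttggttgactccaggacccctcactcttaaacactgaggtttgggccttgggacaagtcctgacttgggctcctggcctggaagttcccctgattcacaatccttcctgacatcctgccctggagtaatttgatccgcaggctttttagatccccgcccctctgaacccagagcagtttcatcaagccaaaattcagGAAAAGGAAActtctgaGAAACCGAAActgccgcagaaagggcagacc

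Cytokines and chemokines separated the subsets by single genes rather than as a group, with 8 of 39 higher and 6 lower. Cxcl9, a ligand of Cxcr3, had 259.9, 347 and 239 in 33D1 DCs, against 11339.5, 11478 and 13324 in DEC205 DCs (-5.20 ± 0.19, adjusted p = 4.11e-14). Il12b, the p40 chain of interleukin 12, had 185, 299 and 268 in 33D1 DCs, against 2039.8, 1368 and 2329 in DEC205 DCs (-2.70 ± 0.32), and Il15, which sustains CD8 T cells and NK cells, had 232, 206 and 229 in 33D1 DCs, against 919.5, 959 and 939.7 in DEC205 DCs (-1.87 ± 0.20). All 3 were low in every 33D1 array. Cxcl16 (-2.24 ± 0.19) and Ccl22 (-2.20 ± 0.35) were lower too. Ccl5, which attracts T cells and monocytes, had 11488, 13974 and 8894 in 33D1 DCs, against 1715, 701 and 2681 in DEC205 DCs (2.88 ± 0.41), and Ccl3 had 1743, 3368 and 1401 in 33D1 DCs, against 201, 97.2 and 641 in DEC205 DCs (2.82 ± 0.52). Both chemokines were higher in 33D1 DCs, with their spread within each group wider than that of Cxcl9. Cytokine and growth factor receptors had 20 of 65 higher and 6 lower, with 2 lower without 33D1 array 3. Tnfrsf13b, which encodes TACI, a receptor of BAFF and APRIL, had 3006, 3466 and 2755 in 33D1 DCs, against 142, 171 and 257 in DEC205 DCs (3.73 ± 0.16). Il21r (2.50 ± 0.13), Il27ra (2.03 ± 0.24), Il7r (1.59 ± 0.16), Lifr (2.84 ± 0.40), the decoy receptor Il1r2 (2.70 ± 0.45) and Csf1r, the receptor of macrophage colony-stimulating factor (2.40 ± 0.25), were higher. Acvrl1, a receptor of the TGF-beta family, was lower (-2.26 ± 0.22). Csf2rb, Il10ra and Tgfbr2 were level at -0.01, 0.07 and -0.11.

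Receptors coupled to G proteins were among the genes that differed most in either direction, with 10 of 53 higher and 14 lower. P2ry14, a receptor of UDP-glucose, had 25.6, 94.7 and 50.9 in 33D1 DCs, against 5990.3, 5851 and 5619.5 in DEC205 DCs (-5.85 ± 0.40). Gpr171 had 7.4, 125 and 46.5 in 33D1 DCs, against 2717, 1797 and 3355 in DEC205 DCs (-4.73 ± 0.36). The prostaglandin E2 receptors were split between the subsets: Ptger3 had 1568, 1706 and 1688 in 33D1 DCs, against 31.0, 62.0 and 94.0 in DEC205 DCs (3.98 ± 0.29), and Ptger2 had 55.3, 23.0 and 53.3 in 33D1 DCs, against 988, 1002 and 718 in DEC205 DCs (-3.37 ± 0.27). Neither pair of groups overlapped. Gpr183, a receptor of oxysterols that guides CD8-negative DCs in the mouse spleen, had 2824, 3452 and 2309 in 33D1 DCs, against 216, 40.3 and 505 in DEC205 DCs (3.61 ± 0.39), and Ccr6, the receptor of Ccl20, had 3205, 3311 and 3227 in 33D1 DCs, against 154, 258 and 315 in DEC205 DCs (3.55 ± 0.32). The chemokine receptors Cxcr3 (-3.37 ± 0.30) and Ccr9 (-3.45 ± 0.26) were lower, as was Lpar6, a receptor of lysophosphatidic acid (-1.93 ± 0.15). Downstream, of 50 G protein subunits, RGS proteins and enzymes of cyclic AMP, 10 were higher and 13 lower. Rgs12, which ends G protein signals, had 5813, 4725 and 4432 in 33D1 DCs, against 949, 695 and 932 in DEC205 DCs (2.48 ± 0.25), and Gng12, a gamma subunit, had 32.0, 115 and 106 in 33D1 DCs, against 1451, 1104 and 1342 in DEC205 DCs (-3.40 ± 0.34). Arrb1 (beta-arrestin 1, -1.83 ± 0.15), Gna15 (-1.66 ± 0.15) and the phosphodiesterase Pde1b (-2.10 ± 0.14) were lower. The abundant alpha subunits Gnai2, Gnai3 and Gnas were level, with intervals of -0.25 to 0.37, -0.34 to 0.06 and -0.42 to 0.23.

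In the MAP kinase list 21 of 60 genes were higher and 9 lower. Rras2, a Ras family GTPase, had 6403, 6013 and 5500.2 in 33D1 DCs, against 808, 760.3 and 1033 in DEC205 DCs (2.73 ± 0.16). Mapk11, which encodes p38 beta, had 999.6, 1134 and 657 in 33D1 DCs, against 117, 118 and 143 in DEC205 DCs (2.46 ± 0.21), and the Ras exchange factor Rasgrp1 was higher (2.46 ± 0.23). Rasa3, a GTPase-activating protein of Ras and Rap, had 283, 424 and 276 in 33D1 DCs, against 2004, 2173 and 1916 in DEC205 DCs (-2.49 ± 0.21). Each of these genes separated the groups. Grb2, Araf and Mknk2 were level at 0.09, 0.20 and 0.14.

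Of 47 genes of the PI3K, AKT and mTOR pathway 9 were higher and 5 lower. Ddit4, an inhibitor of mTOR complex 1 also called REDD1, had 3387, 3022 and 3328 in 33D1 DCs, against 165, 181 and 263 in DEC205 DCs (3.73 ± 0.31). Sesn1 (1.63 ± 0.17) and the catalytic subunits Pik3cd (1.01 ± 0.14) and Pik3cg (0.86 ± 0.11) were higher. Trib1, a pseudokinase that targets C/EBP proteins for degradation, had 12.6, 19.2 and 21.3 in 33D1 DCs, against 1226, 386 and 1284 in DEC205 DCs (-3.77 ± 0.36), so DEC205 array 2 was the lowest of its group and still above all 33D1 arrays. Calcium signalling had 14 of 51 higher and 12 lower. Ryr3, a calcium release channel of internal stores, had 4507, 4442 and 4480.3 in 33D1 DCs, against 44.7, 10.3 and 246 in DEC205 DCs (5.27 ± 0.43), and Hvcn1, a proton channel, had 1107, 1678 and 1282 in 33D1 DCs, against 23.1, 177 and 44.3 in DEC205 DCs (3.60 ± 0.27). Prkcb, protein kinase C beta (1.39 ± 0.12), and Prkd2 (1.76 ± 0.13) were higher. The potassium channel Kcnn4 (-2.77 ± 0.26), the cation channel Trpm2 (-2.02 ± 0.25) and the kinase Camk1d (-1.82 ± 0.14) were lower. In the SOCS, JAK, SMAD and Notch list 11 of 52 were higher and 14 lower. The Notch regulator Dtx1 (4.90 ± 0.32) and the ligand Jag1, with 1241, 1281 and 1332 in 33D1 DCs, against 183, 154 and 326 in DEC205 DCs (2.36 ± 0.24), were higher. The receptor Notch4 had 172, 240.2 and 188 in 33D1 DCs, against 2749, 2829 and 2165 in DEC205 DCs (-3.40 ± 0.30). Fzd1, a receptor of Wnt, had 149, 109 and 199.7 in 33D1 DCs, against 3331, 3655 and 2407 in DEC205 DCs (-3.99 ± 0.28). Notch2 was not called (interval -0.49 to 0.11). The called Notch receptor, ligand, effector and regulator thus did not share a direction.

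Costimulatory, inhibitory and adhesion molecules had 17 of 61 higher and 16 lower. Cd274 and Pdcd1lg2, which encode the ligands of PD-1, were both higher, with 3753, 3859 and 2851 in 33D1 DCs, against 496, 328 and 628 in DEC205 DCs for Cd274 (2.76 ± 0.26) and 2.43 ± 0.27 for Pdcd1lg2. Cd86, a ligand of CD28, had 1276, 1504 and 1476 in 33D1 DCs, against 6367, 6152 and 6710.3 in DEC205 DCs (-2.14 ± 0.23), and Btla, an inhibitory receptor, had 2279, 2932 and 2266 in 33D1 DCs, against 13506, 15404 and 14575 in DEC205 DCs (-2.53 ± 0.12). Neither gene overlapped between the groups. The integrin chains differed by subset, with Itgam, which encodes CD11b, at 3.22 ± 0.26, Itgb3 at 2.37 ± 0.34 and Itgae, which encodes CD103, at -4.94 ± 0.27. Itgax, which encodes CD11c, had 16935, 19355 and 16758 in 33D1 DCs, against 12351, 12461 and 13659 in DEC205 DCs, and its difference of 0.46 ± 0.31 did not pass the test (adjusted p = 0.366, interval -0.19 to 1.11). Dpp4 (CD26), Cd47 and Cd53 were level at -0.02, 0.24 and 0.09.

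Metabolic genes that were called were mostly lower. Of 440 tested genes in 10 lists, 49 (11.1%) were higher and 108 (24.5%) lower in 33D1 DCs, with a median of -0.18, where 11.0% and 11.5% of all genes were called. Glucose use differed gene by gene, with 8 of 42 genes of glycolysis and the pentose phosphate pathway higher and 13 lower. Slc2a3, a glucose transporter of high affinity, had 8632, 8792 and 6764 in 33D1 DCs, against 221, 249 and 528 in DEC205 DCs (4.49 ± 0.19, adjusted p = 3.93e-13). Hk3, a hexokinase of myeloid cells, had 7.3, 52.3 and 72.4 in 33D1 DCs, against 3771, 4536 and 3847 in DEC205 DCs (-5.54 ± 0.36). Pfkp, an isoform of phosphofructokinase, had 597, 693 and 519 in 33D1 DCs, against 3338, 2901 and 3024 in DEC205 DCs (-2.27 ± 0.14). The transporter was thus higher and both enzymes lower in 33D1 DCs, with no overlap. Pgk1 was lower at a high level, with 8452, 10279 and 7378 in 33D1 DCs, against 16462, 20605 and 23075 in DEC205 DCs (-1.20 ± 0.14). Pygl, which releases glucose from glycogen, had 2189.7, 2089.9 and 1821 in 33D1 DCs, against 208, 126 and 299 in DEC205 DCs (3.06 ± 0.22), and the enolase Eno3 was higher (1.91 ± 0.19). Pkm, Pdhb and Tkt were level at -0.12, -0.14 and -0.02.

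Subunits of the respiratory chain leaned one way by small amounts. Of 64 genes 0 were higher and 15 lower, with a median of -0.29, and 12 were lower with median centring, which moved the median of all genes to -0.05. Cycs, which encodes cytochrome c, had 8664, 9695 and 9568 in 33D1 DCs, against 15281, 16499 and 17508 in DEC205 DCs (-0.82 ± 0.14). The complex I subunits Ndufs4 (-0.78 ± 0.16) and Ndufb11 (-0.71 ± 0.12), the complex III subunit Uqcrb (-0.68 ± 0.14) and the ATP synthase subunit Atp5g3 (-0.66 ± 0.10) were lower. Without DEC205 array 3, 10 were lower. Cox6b1 and Cox6c were not called, with intervals of -0.48 to 0.08 and -0.43 to 0.08, which hold both 0 and the list's median. The citric acid cycle had 5 of 33 genes higher and 8 lower, with 3 higher without 33D1 array 1 or DEC205 array 3 and 2 with median centring. Mdh2, mitochondrial malate dehydrogenase, was higher, with 19076, 22108 and 24583 in 33D1 DCs, against 10413, 11926 and 13606 in DEC205 DCs (0.87 ± 0.14), and Idh1, the cytosolic isocitrate dehydrogenase, had 196, 138 and 255 in 33D1 DCs, against 998, 880.2 and 705 in DEC205 DCs (-1.91 ± 0.25). Sdha, a subunit of succinate dehydrogenase, was level (-0.25 to 0.30).

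Lipid genes were mostly lower where they were called. Fatty acid oxidation and synthesis had 3 of 55 genes higher and 17 lower, and 1 higher with median centring. Plin2, the coat protein of lipid droplets, had 384, 371 and 378 in 33D1 DCs, against 6600.4, 7333 and 5916 in DEC205 DCs (-3.96 ± 0.19). Fasn, fatty acid synthase, had 867, 938 and 771 in 33D1 DCs, against 2078, 1916 and 1782 in DEC205 DCs (-1.12 ± 0.14), and the oxidation enzymes Acadl (-1.21 ± 0.14) and Acox3 (-1.75 ± 0.15) were lower too. Fabp5, a carrier of fatty acids, ran the other way, with 4088, 5436 and 4512 in 33D1 DCs, against 459, 262 and 1052 in DEC205 DCs (3.07 ± 0.31). Cholesterol synthesis, uptake and efflux had 2 of 34 higher and 9 lower, with Fdps, an enzyme of isoprenoid synthesis, at 672, 742 and 793 in 33D1 DCs, against 2278, 2404 and 2364 in DEC205 DCs (-1.61 ± 0.20). Hmgcs1, at the start of the same route, was not called, with an interval of -0.47 to 0.05 that holds both 0 and the list's median of -0.22. The sterol regulatory element, TCACNCCAC on both strands, was in 0 of 7 lower genes of this list with a promoter and in 1 of 21 others (4.76%). Among all genes with a promoter 388 held it (1.44%), and among the tested ones 153 (1.43%).

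Enzymes of lipid mediators separated the subsets by single genes, with 8 of 51 in their list higher and 9 lower. Ptgs2, which encodes cyclooxygenase 2, had 5684, 12594 and 4374 in 33D1 DCs, against 67.7, 13.9 and 1101 in DEC205 DCs (5.08 ± 0.70, and 6.33 without DEC205 array 3), the widest spread within groups of the genes named here. Lta4h, which makes leukotriene B4, had 6805, 7776 and 6962 in 33D1 DCs, against 2770.4, 2054 and 3187 in DEC205 DCs (1.43 ± 0.14), and Tbxas1, thromboxane synthase, was lower (-2.03 ± 0.32). Plpp1, a lipid phosphatase, had 29.5, 11.0 and 13.9 in 33D1 DCs, against 3143, 3378 and 3087 in DEC205 DCs (-5.62 ± 0.34), so it was bright in every DEC205 array and dim in every 33D1 array. The ceramide synthase Cers6 was higher (1.96 ± 0.20), and Sgms1, which makes sphingomyelin, was lower (-1.69 ± 0.15).

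In the redox list 4 of 36 genes were higher and 10 lower. Cybb, the catalytic subunit of the phagocyte NADPH oxidase, had 6480.3, 6803 and 5647 in 33D1 DCs, against 140.4, 112 and 413 in DEC205 DCs (4.72 ± 0.30), while its regulatory subunit Ncf4 was level (-0.32 to 0.15). Txn1, thioredoxin, had 4562, 4117 and 4191 in 33D1 DCs, against 17610.3, 21517 and 19093 in DEC205 DCs (-2.16 ± 0.18). Gclc, which starts glutathione synthesis, had 648, 601 and 557 in 33D1 DCs, against 2970.1, 1629 and 3205 in DEC205 DCs (-1.97 ± 0.19), and Hmox1, heme oxygenase 1, had 33.1, 33.7 and 109 in 33D1 DCs, against 846, 577 and 1122 in DEC205 DCs (-3.09 ± 0.36). These 3 genes were lower in each 33D1 array. Genes of iron, heme and vitamins had 6 of 30 higher and 5 lower. Slc11a1, which moves divalent metals out of phagosomes, had 243, 289.9 and 323 in 33D1 DCs, against 3659, 3802 and 3329 in DEC205 DCs (-3.45 ± 0.23). The transferrin receptor Tfrc had 3795, 4086 and 4189 in 33D1 DCs, against 1200, 1073 and 1516 in DEC205 DCs (1.65 ± 0.15), and the heme exporter Flvcr1 was higher (1.77 ± 0.15). Fth1, a ferritin chain, was level (-0.10 to 0.49). Amino acid genes had 7 of 49 higher and 13 lower, with Gatm, an enzyme of creatine synthesis, at 347, 275 and 359.9 in 33D1 DCs, against 3292, 2619 and 2724 in DEC205 DCs (-2.96 ± 0.34), and the amino acid transporter Slc38a2 at 1.13 ± 0.21. Nucleotide genes had 6 of 46 higher and 9 lower, with 3 higher without 33D1 array 1 or 33D1 array 2 or with median centring. Enpp4, an ectoenzyme that cleaves dinucleotides, had 258, 233 and 276 in 33D1 DCs, against 2967, 2843 and 1892 in DEC205 DCs (-3.08 ± 0.21), adenosine kinase Adk was lower (-1.29 ± 0.19), and Prps2 was higher (1.24 ± 0.18).

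The same contrast in DCs of Flt3L mice, which uses other arrays but the same estimate of each gene's spread, gave the same sign for 2949 of the 2987 called genes (98.7%). The share of same signs over all tested genes is not given here. Fewer genes were called the same way in both contrasts. Of the 1459 higher genes 1104 were also called higher in Flt3L mice, and of the 1528 lower genes 1163 were also called lower. The opposite call was made for 1 gene. By theme the sign was the same for 71 of 72 transcription factors, 179 of 180 trafficking genes, 345 of 348 signalling genes and 154 of 157 metabolic genes. The median size of the difference over the called genes was 0.85 in wild-type mice and 0.77 in Flt3L mice. These genes were picked by their wild-type difference, which favours the wild-type size. A direct test of whether the subset difference itself differed between wild-type and Flt3L mice called 8 of 13284 genes (0.0602%), with 634 at an unadjusted p under 0.05. The count was 2 without DEC205 array 3 and 4 without 33D1 array 1, 33D1 array 3 or DEC205 array 1. The 2 of them that the text's rule names were Ltb, lymphotoxin beta, and Olfm1, a secreted glycoprotein. Ltb had 15826, 15309.9 and 15244 in 33D1 DCs, against 1374, 696 and 1564 in DEC205 DCs, a difference of 3.70 ± 0.21 against 5.95 ± 0.21 in Flt3L mice. Olfm1 had 35.1, 25.6 and 24.4 in 33D1 DCs, against 4054, 3068 and 2657 in DEC205 DCs, a difference of -5.41 ± 0.18 against -3.18 ± 0.18 in Flt3L mice.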

How the data were processed

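RNA of splenic DCs and lymphocytes was hybridised to 21 Affymetrix arrays in 7 groups of 3, and the 6 arrays of wild-type DCs were compared. The deposited values are linear intensity signals, 1 per probe set and array, made by the authors. The submitters' processing notes name GCOS and MAS5 (versions: not given in the sources used here). For each array the 2% trimmed mean was 500, so the arrays had been scaled to it. The table's 45101 probe sets include 34945 with 1 gene symbol in the platform annotation, 932 with several and 9160 with none, and 64 controls. Probe sets with several symbols or none were not named.

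The deposited scaling was kept. Signals were turned into log2(signal + 48.6), where 48.6 is the 25th percentile of the table, so log2 differences of dim genes are understated. Probe sets entered the test where their signal was over 156.3, the table's median, on at least 3 of the 21 arrays. Group means of all 21 arrays were fitted with limma 3.58.1 in R 4.3.3 (lmFit, then eBayes with trend, on 14 residual degrees of freedom). The tests were two-sided, and p-values were adjusted by Benjamini-Hochberg over 23946 kept probe sets with 1 symbol. A gene stands by its kept probe set with the highest mean signal, which gave 13284 genes. Differences are given with their standard error, and intervals are 95% confidence intervals. Signals of different probe sets have different brightness and were not compared with each other, and the small number of arrays limits the precision.

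The genes named were the greatest differences in each direction among called genes whose arrays did not overlap, and for each list the members with the smallest adjusted p, the called members with an absolute log2 difference of at least 2, the brightest members with an interval within 0.5 of 0, and called transcription factors with a difference of at least 1. Defining markers of other cells, Hspa5, Hsp90b1 and Ifitm3 were added after their values were seen. The comparison, the gene lists and the alternatives were chosen with earlier results of these data known. The fit was tested on simulated data. Alternatives changed the offset, scaling, filter, arrays in the fit, replicate block, probe set rule and variance model, and left out each wild-type DC array. One list of signalling genes, counted in the total of that theme, is not reported here.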

Additional observations from a re-analysis of the deposited data

Results flagged for a closer look

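Ltb and Olfm1 stood out because a direct test found that their difference between the subsets was not the same in wild-type and Flt3L mice. For Ltb the wild-type difference minus the Flt3L difference was -2.25 on the log2 scale (limma, adjusted p = 0.0023). For Olfm1 it was -2.23 (adjusted p = 0.000594). In both mice Ltb was higher and Olfm1 lower in 33D1 DCs than in DEC205 DCs.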

How the results depend on the processing

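The counts of genes called higher (1033 to 1589) and lower (1247 to 1690) stayed within 1.5 times of the reported counts under all alternatives. Of 476 named genes 350 were called, and none of these changed direction. Direction was not checked for the named genes that were not called. Of the 350, 14 lost their call on leaving out at least 1 of the arrays. Other settings that ended calls were median centring (10 named genes), no intensity trend (6), no filter on low signals (5), averaged probe sets (5), 2 arrays left out together (5), quantile normalization (4), the 6 arrays alone (4), the replicate block (3, and 2 in the 6 arrays alone), the 12 DC arrays alone (2) and an offset of 16 (2). Named genes also gained calls, with quantile normalization (5), averaged probe sets (4), the 12 DC arrays alone (1) and the 6 arrays alone (1, and 1 with the replicate block). Median centring gave 1033 higher and 1490 lower, so 40.9% of calls were higher, against 48.8% as reported. Without 1 array at a time, 1169 to 1296 genes were higher and 1247 to 1343 lower. The number of genes whose subset difference differed between wild-type and Flt3L mice, 8 as reported, was 2 with an offset of 16, 4 after quantile normalization, 5 with median centring, 14 with 1 probe set per gene tested, 4 with probe sets averaged, 5 with no intensity trend and 2 without both DEC205 array 3 and array 3 of the 33D1 DCs of Flt3L mice, and 2 to 10 without 1 array at a time. Leaving out arrays gives fewer samples, and the cause of the other shifts was not tested. The replicate block gave 1423 higher and 1497 lower, with 7 genes in the test of differing subset differences, and in the 6 arrays alone it gave 1389 and 1508. Deviations from the group means correlated between arrays of the same number with r of 0.336, -0.164 and -0.160. Deviations from a mean of 3 arrays are tied to each other, so these values cannot decide whether the numbers pair the arrays. The test of differing subset differences could not be fitted with the 6 arrays alone, which hold no Flt3L mice.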
